A study of Mus musculus with 24 samples.

Results

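The genes described here are 10 regulators of skeletal muscle formation and of muscle precursor cells: Myf5, Myod1, Myog, Myf6, Pax3, Pax7, Mymk, Msc, Met and Mef2c. They were chosen by symbol from the array annotation, and all 10 of them were among the 18193 genes on the array, through 19 probe sets. Where a gene had several probe sets, the one of highest average signal stands for it. RNA came from the jaws of C57B6 mouse embryos at embryonic day 14.5. The mating joined Wnt1cre;Alk5fl/+ with Alk5fl/fl animals. The mutants were the embryos recognised by cleft palate and a calvarial defect, and littermates served as controls, with no genotype given beyond that. Alk5, whose gene symbol is Tgfbr1, is a type I receptor for TGF-beta. Wnt1-Cre removes floxed sequence in the neural crest lineage, whereas jaw muscle comes from mesoderm. Mandible and maxilla were each divided into a distal and a proximal piece, called bone in the labels, which gave 8 groups of 3 arrays. The pieces hold many tissues: the median log2 level of 6 measured bone-cell markers lay between 8.10 and 12.55 in the 24 arrays, and that of 8 epithelial markers between 10.14 and 12.71.

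Skeletal myoblasts are committed by Myf5 and Myod1, DNA-binding proteins of the basic helix-loop-helix family. Myog then drives their differentiation into fibres, together with MEF2 proteins, and Myf6 acts in both early and late steps. Pax3 and Pax7 mark precursor cells of the trunk and limb and, in the head, also neural crest derivatives. Mymk is a membrane protein needed for myoblasts to fuse, Msc (musculin) is a helix-loop-helix repressor of the branchial arch muscle precursors, and Met is the receptor for hepatocyte growth factor. In the head, Pax3 does not start myogenesis. Mef2c, Met, Pax3 and Pax7 are also made outside muscle.

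Levels are log2 RMA signals, and they are compared between arrays for 1 gene, never between genes. Array medians lay between 7.03 and 7.12. A level under 6.33 to 6.47, the 40th percentile of an array, was read as background, and no fold is given where a group mean lay under it. Of the 10 genes, Myf6 passed the filter only just, with 3 of 24 arrays above that level, and the other genes were above it in 19 to 24 arrays. The 3 probe sets of Tgfbr1 were higher in mutants by 0.56, 0.55 and 0.26, and since they may lie outside the deleted part they check nothing about the labels. Whether the 3 arrays of a group are separate embryos is not in the labels, so p-values measure the spread between these arrays, which may be technical in part. Xist was at 13.53 to 13.67 in controls numbered 1 and at 6.23 to 7.49 in those numbered 2 and 3. It was at 13.03 to 13.39 in mutants numbered 2. Mutants numbered 1 and 3 had both Xist, at 11.15 to 12.79, and the Y-linked Eif2s3y, at 9.05 to 9.75. In the muscle genes some arrays stood apart from the others of their group. Mutant distal mandible 2 was low, and control proximal maxilla 2, mutant proximal maxilla 3 and mutant distal maxilla 3 were high. Myog, for example, was at 9.61 in mutant distal maxilla 3 and at 7.86 and 7.16 in the others of that group. The results are also given without these arrays where a call changed.

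**Figure D1:**
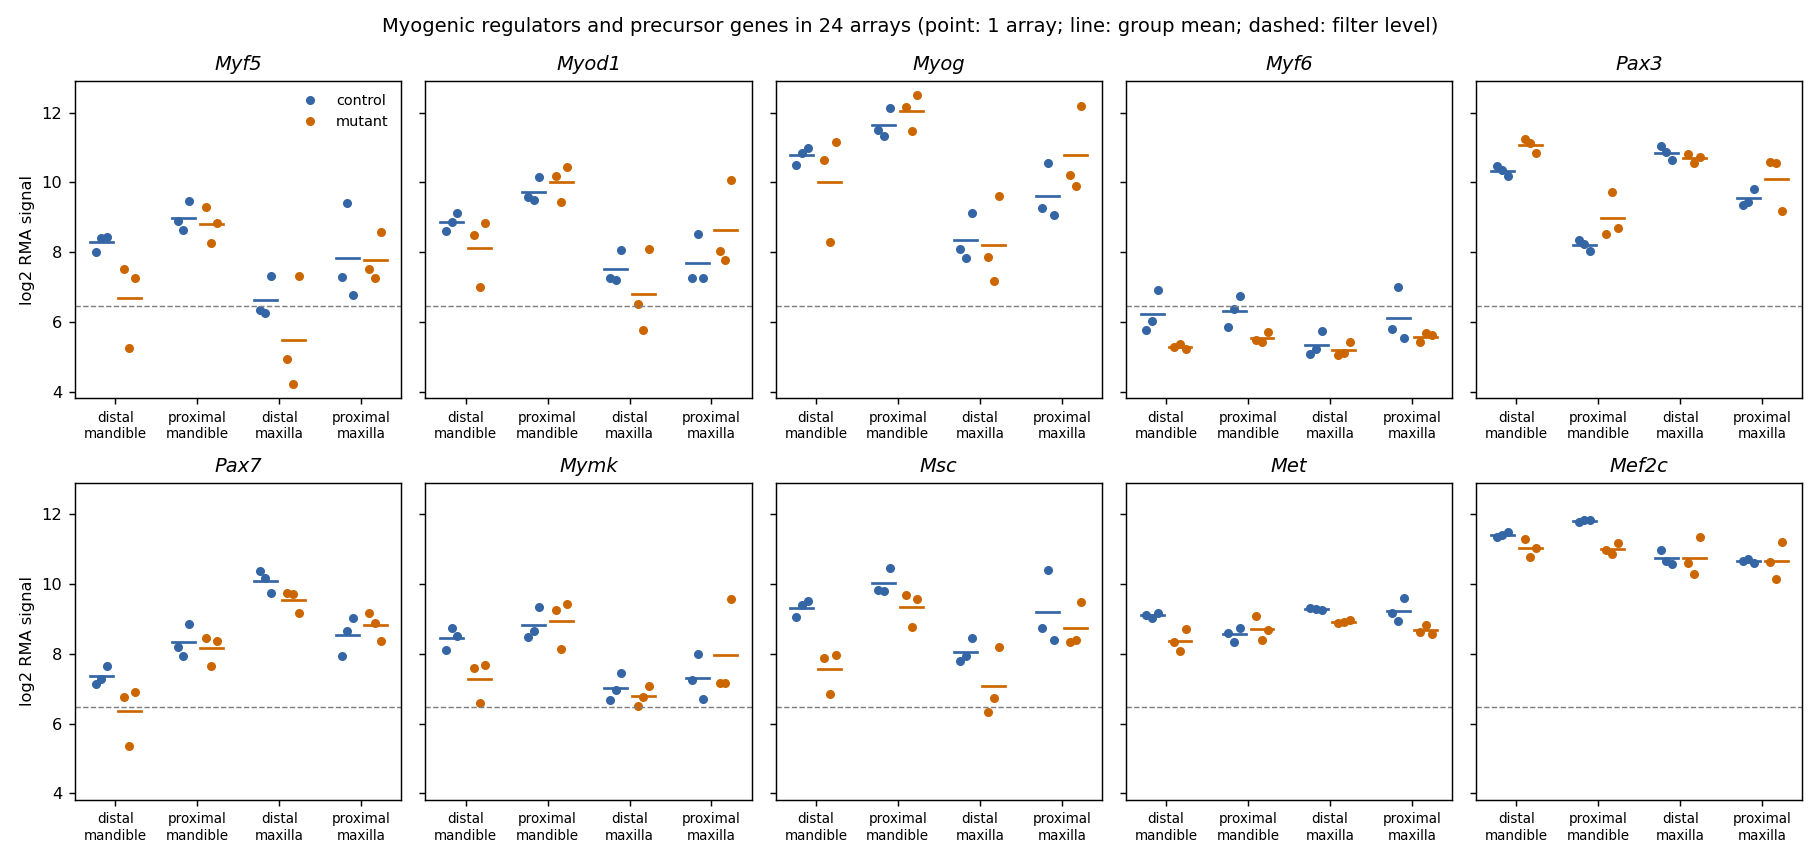
Log2 RMA signal of the 10 genes (vertical axis) in the 4 regions (horizontal axis), with 1 point per array, blue for controls and orange for mutants, a line at each group mean and a dashed line at a level of 6.47, the highest filter level. Myf6 lies at or under the dashed line in nearly all arrays, Pax3 runs opposite to Myog between the ends, and Myog spreads most in the mutant distal mandible, where 1 array lies far below the other 2.

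Promoter sequence is shown for Myog and for a pair of genes used beside it: Chrna1, the muscle acetylcholine receptor subunit whose levels followed Myod1 most closely, and Myh3, the embryonic myosin heavy chain, whose level is also read relative to Myog. Each line gives the 250 bases before the annotated start in RefSeq, build GRCm38.p6, read 5′ to 3′ on the gene's strand. The Myog stretch is chr1:134289754-134290003 on the plus strand, the Chrna1 stretch is chr2:73580339-73580588 on the minus strand, and the Myh3 stretch is chr11:67078050-67078299 on the plus strand. Capitals mark E-boxes, CANNTG, which reads the same way on both strands and is the site type of myogenic helix-loop-helix proteins, and MEF2 cores, here TA, then any 4 bases that are A or T, then TA.
Myog: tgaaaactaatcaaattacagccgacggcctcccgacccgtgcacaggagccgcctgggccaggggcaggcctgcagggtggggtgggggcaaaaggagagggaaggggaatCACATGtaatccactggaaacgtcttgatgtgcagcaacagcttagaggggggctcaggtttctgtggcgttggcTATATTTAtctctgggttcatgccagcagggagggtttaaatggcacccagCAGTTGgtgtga
Chrna1: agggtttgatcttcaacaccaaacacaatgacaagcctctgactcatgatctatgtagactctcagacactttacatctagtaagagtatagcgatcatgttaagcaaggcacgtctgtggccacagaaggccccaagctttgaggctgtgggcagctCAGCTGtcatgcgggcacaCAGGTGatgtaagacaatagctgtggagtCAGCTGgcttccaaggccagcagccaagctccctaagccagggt
Myh3: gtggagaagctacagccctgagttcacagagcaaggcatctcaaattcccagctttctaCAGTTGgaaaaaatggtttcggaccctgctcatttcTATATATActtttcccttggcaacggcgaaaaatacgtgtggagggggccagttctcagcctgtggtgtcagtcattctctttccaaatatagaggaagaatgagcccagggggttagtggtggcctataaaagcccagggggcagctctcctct

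The Myog stretch held 2 E-boxes and 1 MEF2 core, the Chrna1 stretch 3 E-boxes and no MEF2 core, and the Myh3 stretch 1 of each. An E-box is common: 66.2% of all 32851 promoter stretches of this length held at least 1, and 8.56% held a MEF2 core, a pattern that some TATA boxes also match. At least 2 E-boxes together with a MEF2 core, as for Myog, were found in 2.91% of them. Among the listed genes, 5 of 10 had an entry in the promoter table (Myog, Myf5, Pax7, Met and Mef2c), and Myod1, Myf6, Pax3, Mymk and Msc are named only. The stretches of Myf5 and Pax7 held neither motif and that of Met held 1 E-box. Mef2c had 3 annotated starts: 1 stretch held 2 E-boxes and a MEF2 core, 1 held 1 E-box and 1 held neither. A match is a description of letters and no measure of binding.

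Where the genes stood in control jaws was examined first. The mandible had higher levels of the myoblast genes than the maxilla, and the maxilla had higher Pax3, Pax7 and Met. Myog was at 10.49, 10.83 and 11.00 in the 3 control arrays of the distal mandible and at 11.50, 11.32 and 12.15 in those of the proximal mandible. In the maxilla it was at 8.09, 7.83 and 9.13 distally and at 9.26, 10.54 and 9.07 proximally. Every mandibular array but 1, distal mandible 1, was thus above every maxillary array. The difference was 2.23 ± 0.50 (log2, SE of the fit, 6 arrays per jaw, 4.69-fold, limma adjusted p = 0.00151). In this comparison 9 of 10 genes were called at an adjusted p under 0.05, 6 higher in the mandible and 3 lower, where 34.7% of 13942 tested genes were called.

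The other genes higher in the control mandible were Myod1 by 1.70 ± 0.42 (3.26-fold, adjusted p = 0.00364), Mymk by 1.47 ± 0.36 (0.00353), Myf5 by 1.41 ± 0.51 (0.0372), Msc by 1.06 ± 0.35 (0.0226) and Mef2c by 0.92 ± 0.16 (0.000152). The call of Myf5 ended without any 1 of 8 of the 12 control arrays (adjusted p 0.056 to 0.106) and that of Msc without any 1 of 4 (0.0506 to 0.0699). Pax7 fell by 1.47 ± 0.26 in the mandible relative to the maxilla (adjusted p = 0.000174), Pax3 fell by 0.93 ± 0.21 (0.00195) and Met fell by 0.43 ± 0.12 (0.00878). The call of Met ended with the mean of all probe sets (-0.24, 0.0607). Myf6 differed by 0.54 (adjusted p = 0.067), with both jaws near background. It was called with the replicate number as a fixed block (0.0432) and with genotype and number as a random block (0.0361). Contractile genes of the sarcomere were higher in the mandible for 29 of 30 tested, with a median log2 difference of 2.81 against 0.99 for the 10 genes and 0.01 for all genes. Markers of other tissues differed between the jaws too: 5 of 7 neuron markers were lower in the mandible and 6 of 8 tendon and 5 of 6 bone markers higher. The median neuron marker was at 7.53 to 8.43 in the control mandible and 9.25 to 11.92 in the control maxilla, and the part of these tissues in the results was not tested. In whole pieces of jaw, fewer cells of a type and less RNA per cell cannot be told apart.

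Along the jaws, Pax3 was distal. In the control mandible it was at 10.48, 10.35 and 10.17 distally and 8.36, 8.22 and 8.03 proximally, and in the control maxilla at 11.04, 10.86 and 10.65 distally and 9.36, 9.44 and 9.82 proximally. The ends did not overlap for this gene in either jaw. The distal excess was 2.13 ± 0.30 in the mandible (3 arrays per end, 4.38-fold, adjusted p = 0.000202) and 1.31 ± 0.30 in the maxilla (2.48-fold, 0.00735). Pax7 was distal in the maxilla, where it was at 10.39, 10.16 and 9.73 distally and 7.95, 8.65 and 9.02 proximally. That difference was 1.56 ± 0.36 (adjusted p = 0.00836, and 1.26 with 0.062 without proximal maxilla 1). In the mandible the order was turned, at 7.14, 7.28 and 7.65 distally and 8.21, 7.94 and 8.87 proximally, a difference of -0.98 ± 0.36 that did not pass (0.144).

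No other listed gene was called between the ends. Pax3 was 1 of 10 called in the mandible, where 5.45% of all tested genes were called, and Pax3 and Pax7 were 2 of 10 in the maxilla, against 10.9%. Arrays of the ends did not overlap for 8 of 10 genes in the mandible, Pax3 and Met higher distally and 6 lower, and for Pax3 and Pax7 in the maxilla, against 31.9% and 25.4% of all tested genes. Myog had a distal minus proximal difference of -0.88 ± 0.70 in the mandible and -1.27 ± 0.70 in the maxilla (adjusted p = 0.627 and 0.28). In the control mandible same-numbered arrays deviated together, and once the number entered the fit as a block Met, 0.55 higher distally, was also called (adjusted p = 0.032 with a fixed and 0.0294 with a random block, 0.0715 without), which makes 2 of 10. With only the 6 compared arrays in the fit 7 of 10 were called there, and with array weights 3. The share of 5.45% is that of the main fit, so these other counts have no matched background. Epithelial markers were also distal, with 6 of 8 higher in each jaw. Their median level was 11.74 to 12.17 in the distal and 10.43 to 10.97 in the proximal control mandible, and 11.86 to 12.71 and 10.14 to 11.06 in the maxilla. In the maxilla 2 of 6 glia and melanoblast markers were also higher distally, and none was called in the mandible. The median of these markers in the control maxilla was at 9.57 to 9.76 distally and 8.09 to 9.11 proximally. The part of these tissues in the Pax3 and Pax7 results was not tested.

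The effect of losing Alk5 in neural crest was measured in each region. In the distal mandible, Msc, Met and Myf6 fell, 3 of 10 genes, where 16.0% of all tested genes were called. Msc, the branchial arch repressor, was at 9.05, 9.41 and 9.52 in the controls and 7.90, 6.85 and 7.96 in the mutants, and it fell by 1.76 ± 0.49 (3.38-fold lower, adjusted p = 0.0188). Met was at 9.12, 9.04 and 9.16 against 8.33, 8.09 and 8.71, and it fell by 0.73 ± 0.17 (1.66-fold lower, 0.00676). Neither gene's arrays overlapped. Without mutant 2, which had the lowest Msc and Met, the values were -1.40 (0.112) and -0.58 (0.0527), and the call of Msc also ended without control 2 or 3 (0.0575 and 0.0709). Myf6 was at 5.76, 6.03 and 6.90 in controls and 5.29, 5.38 and 5.22 in mutants, so 1 of these 6 arrays was above the filter level. Its change of -0.93 ± 0.31 (0.0492) is that of a gene near background, and the call ended without any of 5 of the 6 arrays (-1.03 to -0.60, 0.0715 to 0.261). With these arrays kept, it also ended with no filter (0.0555), with the mean of all probe sets (0.0524) and with no trend (0.0524). The same held with genotype and number as a random block (0.0534) and without both mutant maxilla arrays numbered 3 (0.0513). Markers of other tissues were lower in the same mutant pieces: 6 of 6 bone markers, 5 of 8 for tendon, 4 of 7 for cartilage, 4 of 7 for macrophages and 3 of 10 for endothelium fell. The median bone marker was at 11.23 to 11.62 in controls and 9.16 to 10.27 in mutants, that of cartilage at 10.48 to 11.03 and 7.42 to 8.66, and that of macrophages at 7.95 to 8.09 and 6.68 to 7.19. The tendon median was at 10.24 to 10.48 and 8.73 to 8.93, and the endothelial one at 9.60 to 9.74 and 9.50 to 9.63. Their part in the results of this region was not tested.

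The central myogenic factors did not pass in the distal mandible. Myod1 was at 8.61, 8.88 and 9.14 in controls and 8.49, 7.01 and 8.83 in mutants, and Myog was at 10.49, 10.83 and 11.00 against 10.64, 8.28 and 11.15. In both genes mutants 1 and 3 lay within or close to the controls and mutant 2 lay far below. The changes were -0.77 ± 0.60 for Myod1 (adjusted p = 0.434) and -0.75 ± 0.70 for Myog (0.524), and without mutant 2 they were at -0.22 and 0.12. Myf5, at 8.01, 8.40 and 8.42 against 7.51, 5.26 and 7.26, had lower values in all 3 mutants, but its change of -1.61 ± 0.72 did not pass (0.141). It was -0.90 without mutant 2 (0.527), and with array weights it was called (-1.72, 0.0191). Mymk, the fusion protein, differed by -1.18 ± 0.51 (0.13), Mef2c by -0.38 ± 0.22 (0.27) and Pax3 by 0.75 ± 0.30 (0.0998). Mymk and Pax3 were both called with array weights (0.0138 and 0.00722) and with only the arrays compared (0.0214 and 0.0033). They were also called without both mutant maxilla arrays numbered 3 (0.0314 and 0.0248). Without control proximal maxilla 2 and mutant proximal maxilla 3 they were called too (0.0229 and 0.0271). Mef2c was called with only the arrays compared (0.0493). Pax7, whose mutant mean of 6.35 was under the filter level, differed by -1.004 ± 0.36 (0.0668), by -0.51 without mutant 2 (0.39) and by -1.29 without mutant 3, which made it a call (0.0357). It was also called with array weights (-1.09, 0.011). Its second probe set differed by -0.19 (0.7). The arrays of the genotypes did not overlap for 8 of the 10 genes, all but Myod1 and Myog, 7 lower and 1, Pax3, higher. Of all tested genes 42.4% did not overlap in this region. With only the 6 arrays of the region in the fit, 6 of 10 genes were called, and with array weights 7. The share of all tested genes called, 16.0%, is that of the main fit, so these counts have no matched background.

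In the proximal mandible Mef2c alone of the 10 genes was called, against 19.9% of all tested genes. Mef2c was at 11.78, 11.83 and 11.85 in controls and 10.97, 10.85 and 11.18 in mutants, with no overlap. It fell by 0.82 ± 0.22 (1.76-fold lower, adjusted p = 0.0132, and -0.75 with 0.0569 without mutant 2). All 5 of its probe sets fell, by 0.82 to 1.12. Endothelial cells and neural crest also make Mef2c, and 4 of 10 endothelial markers fell in this region, with a median level of 9.66 to 9.78 in controls and 9.24 to 9.66 in mutants. The median tendon marker went from 10.53 to 10.65 in controls to 8.54 to 9.04 in mutants, and 6 of 8 fell. The median bone marker went from 12.33 to 12.55 to 9.56 to 11.28, and 5 of 6 fell. The part of these cells in the Mef2c result was not tested.

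Myog was not lower in the mutant proximal mandible: it was at 11.50, 11.32 and 12.15 in controls and 12.17, 11.48 and 12.49 in mutants, with a change of 0.39 ± 0.70 (adjusted p = 0.766). Myod1 was at 9.57, 9.49 and 10.15 against 10.19, 9.43 and 10.45, a change of 0.29 ± 0.60 (0.803). Myf5 changed by -0.19, Mymk by 0.11, Pax7 by -0.17, Met by 0.17 and Msc by -0.69, with adjusted p from 0.371 to 0.915, and these values had standard errors up to 0.72. Pax3 was at 8.36, 8.22 and 8.03 in controls and 8.52, 9.73 and 8.70 in mutants, apart but unequal, and its difference of 0.78 ± 0.30 did not pass (0.0761). It did with the number as a fixed block (0.0495) and without mutant 1 (1.01, 0.0381). Pax3 also passed with array weights (0.0339) and without both mutant maxilla arrays numbered 3 (0.0161). Without control proximal maxilla 2 and mutant proximal maxilla 3 it passed too (0.0175). Myf6, near background, differed by -0.77 (0.0937). It was called with only the arrays compared (0.0442) and without control proximal maxilla 2 and mutant proximal maxilla 3 (0.037). Arrays did not overlap for Myf6, Pax3, Msc and Mef2c, 4 of 10 genes, against 35.2% of all tested genes.

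**Figure D2:**
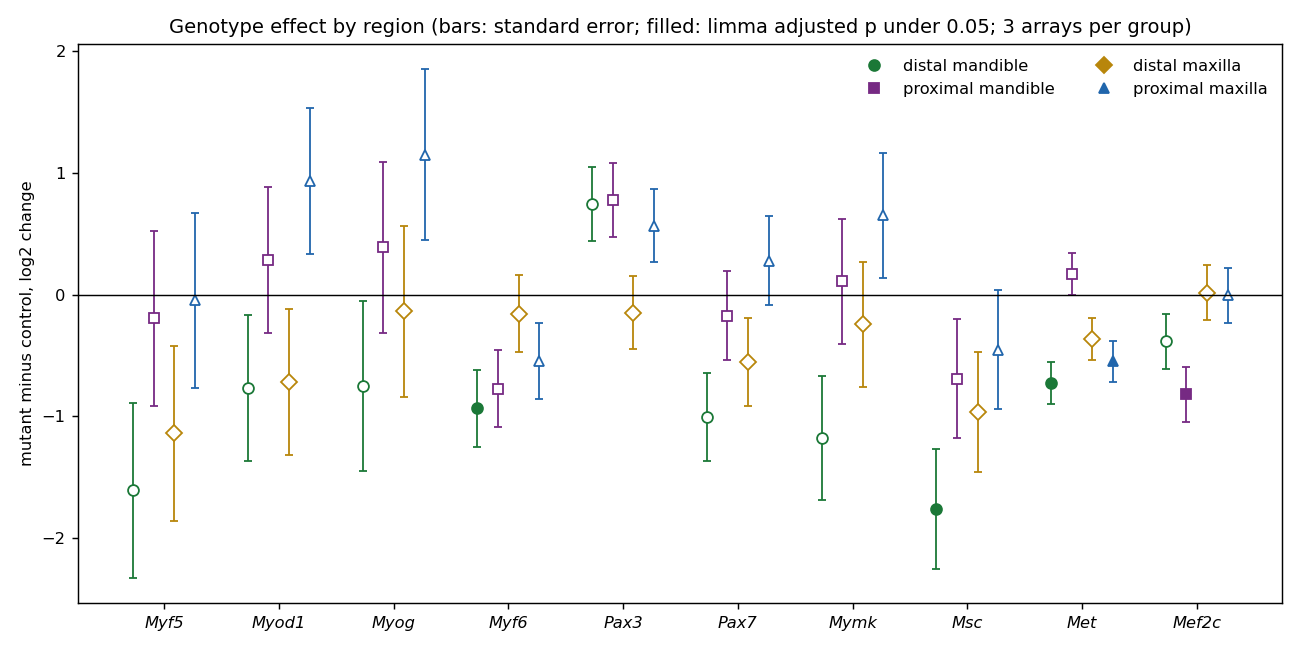
Mutant minus control log2 change of each gene (horizontal axis: genes, vertical axis: log2 change) in the 4 regions, with standard errors of the fit, 3 arrays per group. Filled symbols mark the 5 calls, Msc, Met and Myf6 in the distal mandible, Mef2c in the proximal mandible and Met in the proximal maxilla, all lower in the mutant, while open symbols of Myog and Myod1 span both signs.

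In the maxilla few differences passed. In the distal maxilla 0 of 10 genes were called by limma, against 2.96% of all tested genes, and 1, Met, had an unadjusted p under 0.05. Met was at 9.33, 9.29 and 9.27 in controls and 8.90, 8.92 and 8.96 in mutants, the only listed gene whose arrays did not overlap there, and its difference of -0.37 ± 0.17 did not pass after adjustment (0.227). Non-overlap was seen for 19.9% of all tested genes. In the proximal maxilla Met was the 1 gene called, against 10.5% of all genes. It was at 9.16, 8.93 and 9.59 in controls and 8.63, 8.84 and 8.58 in mutants, and it fell by 0.55 ± 0.17 (1.46-fold lower, adjusted p = 0.0464). That call ended without control 1 or 3 or mutant 1 or 3 (-0.58 to -0.37, 0.0843 to 0.224), and under 7 other choices of processing or samples (adjusted p 0.051 to 0.163). It also ended without both control 2 and mutant 3 (-0.65, 0.079). Met was also the only listed gene whose arrays did not overlap there, against 28.8% of all tested genes. The second probe set of Met, at a mean level of 6.34 close to background, had the same sign in both maxillary ends and in the distal mandible, by -0.18 to -0.38, and was called in none. In the proximal maxilla 6 of 7 cartilage markers and 2 of 6 bone markers fell and 4 of 8 epithelial markers rose. The median epithelial marker was at 10.14 to 11.06 in controls and 10.99 to 11.63 in mutants, and the median cartilage marker at 11.56 to 11.81 and 6.48 to 10.45. Their part in the Met result was not tested.

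Myog and Myod1 had their highest mutant values relative to controls in the proximal maxilla, and there 1 array carried much of the difference. Myog was at 9.26, 10.54 and 9.07 in controls and 10.22, 9.90 and 12.19 in mutants, a difference of 1.15 ± 0.70 (adjusted p = 0.315). Myod1 was at 7.27, 8.52 and 7.27 against 8.02, 7.78 and 10.08, a difference of 0.94 ± 0.60 (0.342). Mutant proximal maxilla 3 was the highest and control proximal maxilla 2 the next in both. Pax3 was at 9.36, 9.44 and 9.82 in controls and 10.58, 10.57 and 9.18 in mutants, so the array highest in Myog was the lowest in Pax3. Its difference of 0.57 did not pass (0.238), and without mutant 3 it was 1.03 (0.0208). Pax3 was also called there with array weights (0.88, 0.0264) and without both control 2 and mutant 3 (0.98, 0.0493).

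Over the mean of the 4 regional differences, with 12 arrays per genotype, Msc, Met, Myf6 and Mef2c fell and Pax3 rose, 5 of 10 genes, where 40.6% of all tested genes were called. Msc fell by 0.97 ± 0.25 (1.95-fold lower, adjusted p = 0.00397), Met fell by 0.37 ± 0.09 (0.00201), Myf6 fell by 0.60 ± 0.16 near background (0.00484) and Mef2c fell by 0.30 ± 0.11 (0.0399). Pax3 rose by 0.49 ± 0.15 (1.40-fold, 0.0141), and all 3 of its probe sets rose, by 0.49 to 0.62. Myod1 changed by -0.06 ± 0.30 (0.888) and Myog by 0.16 ± 0.35 (0.749), and Myf5 by -0.75 ± 0.36 (0.106), Pax7 by -0.36 ± 0.18 (0.122) and Mymk by -0.16 ± 0.26 (0.648). Myf5 was called without mutant distal maxilla 3 (-0.97, 0.017) and with array weights (-0.89, 0.0243). It was also called without both mutant maxilla arrays numbered 3 (-1.07, 0.00966). Same-numbered arrays of a genotype mostly deviated together, with residual correlations over 0.1 in 32 of 36 pairs. The 12 arrays per genotype may therefore not be independent, as the main fit takes them to be. With genotype and number as a random block Msc, Met and Myf6 stayed called, and the calls of Pax3 (0.0784) and Mef2c (0.108) ended. Without the 4 mutant arrays numbered 2, those of Pax3 (0.35, 0.0684), Msc (-0.72, 0.0523) and Mef2c (-0.13, 0.309) did. Leaving out any 1 of 16 arrays also ended the call of Mef2c (-0.30 to -0.23, 0.0518 to 0.0781).

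Whether the genotype effect itself differed between regions was tested by interaction terms. None of the 10 genes was called by limma for a difference between the jaws, where 6.76% of all tested genes were, between the ends (0.115%) or between the ends of the mandible (0.108%). Unadjusted p-values under 0.05 were found for 1 gene between the jaws (Mef2c, -0.61, 0.0139), for 3 between the ends (Myod1, Pax7 and Mymk, by -1.35, -0.83 and -1.09) and for 1 within the mandible (Met, -0.90, 0.0015). Mef2c was called between the jaws with a random block (adjusted p = 0.0331, 0.116 without). In a fit over probe sets, 1 of its 5 probe sets was called for this term (-0.96, adjusted p = 0.0161), and the other 4, main one included, were at -0.74 to -0.61 (0.0818 to 0.123). Leaving out mutant distal maxilla 2 or mutant proximal maxilla 2 gave 1 listed gene called between the jaws. This term sets both mandibular ends against both maxillary ends, so it cannot show a call to be particular to 1 region. The calls of single regions are thus not shown to be particular to them.

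The regulators were then set beside the genes of the contractile apparatus. In the distal mandible, where 16.0% of all tested genes were called, 22 of 30 tested contractile genes fell and the rest did not pass. Their median log2 change was -2.44, against -0.85 for the 10 genes and 0.04 for all genes. In the proximal mandible 7 of 30 fell, a share near the 19.9% of all tested genes called there. The median of the 30 was -0.79, against -0.03 for the 10 genes. In the distal maxilla 0 of 30 were called, with a median of 0.09, against -0.30, and in the proximal maxilla 0 of 30, with 0.24 against 0.14. Of all tested genes 2.96% and 10.5% were called in these regions. In the distal maxilla 11 of the 30 had both group means under the filter level and 3 more had 1, so these could show little or no fall there, against 1 of 30 with both under it in the proximal maxilla and none in the mandible. The steepest in the distal mandible by the test were Myh8 (-4.29 ± 0.73, adjusted p = 0.000683), Myom1 (-2.45 ± 0.43), Ldb3 (-3.32 ± 0.61) and Ttn (-4.13 ± 0.78). Between the jaws the interaction term was called for 12 contractile genes, all more negative in the mandible, and for none of the 10 regulators. Of these 12, 9 had at least 1 group mean under the filter level, where a further fall could not be measured, and Acta1, Actn2 and Tcap, named after their values were seen, had none.

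**Figure D3:**
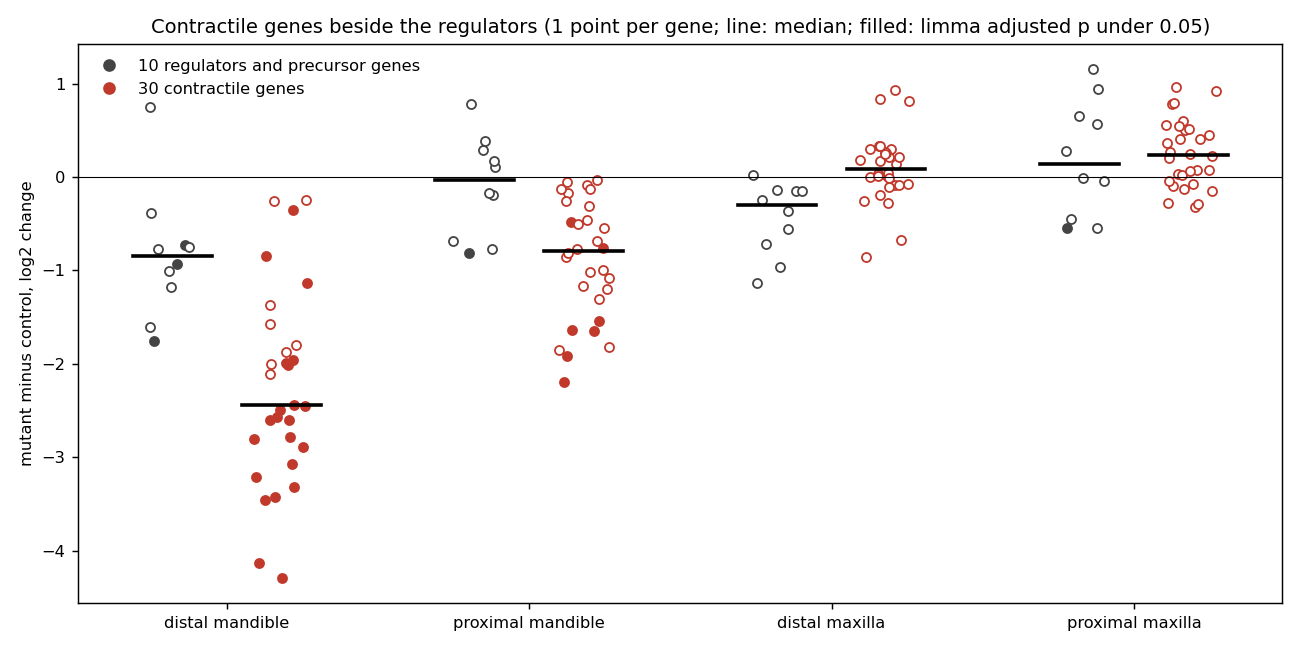
Mutant minus control log2 change (vertical axis) of the 10 regulators and precursor genes (grey) and of 30 contractile genes (red) in each region (horizontal axis), with 1 point per gene, a line at each median and filled points for an adjusted p under 0.05. The medians part in the distal mandible, at -0.85 and -2.44, and in the proximal mandible, at -0.03 and -0.79. In the maxilla they lie at -0.30 and 0.09 distally and at 0.14 and 0.24 proximally. At the distal end of the maxilla 11 contractile genes were at background in both genotypes.

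Since arrays of a group differed in their muscle genes as a whole, each level was also read relative to Myog in the same array. That reading was chosen after the values were seen, so it is given as a description with no test, and only its change between genotypes has a meaning. Myh3, the embryonic myosin, minus Myog was at 2.18 to 2.21 in control and -0.72 to -0.20 in mutant distal mandible, and at 1.04 to 1.52 and -0.43 to -0.10 in the proximal mandible. It was also lower in the mutant proximal maxilla, at 0.71 to 1.88 and 0.23 to 0.47, and it overlapped in the distal maxilla. In the proximal maxilla Myh3 itself had means of 11.08 in controls and 11.11 in mutants. Myog was 1.15 higher in those mutants, which did not pass (limma adjusted p = 0.315). Of 30 contractile genes, 20 lay wholly lower in the mutant distal mandible on this reading, 25 in its proximal end, and 2 and 17 in the distal and proximal maxilla. Among all tested genes the share was 0.459%, 6.45%, 0.308% and 2.70% in the same order. A gene that does not follow Myog carries the spread of Myog in this reading. These shares are therefore no matched background for contractile genes, whose median followed Myog (Pearson r of 0.837 after the group means were taken out). In the proximal maxilla 22 of the 30 changed upward in level, 8 downward and 0 were called, so the 17 are not shown to be falls in level. The median contractile gene minus Myog was at -0.55 to -0.15 in control and -3.13 to -1.499 in mutant distal mandible and at -1.42 to -0.80 and -2.65 to -2.10 proximally, apart in both, and it overlapped in both ends of the maxilla.

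Myf5 stood lower relative to Myog in all 4 regions. Myf5 minus Myog was at -2.58 to -2.43 in controls and -3.89 to -3.02 in mutants in the distal mandible, and at -2.70 to -2.61 and -3.67 to -2.87 in the proximal mandible. It was at -1.81 to -1.58 and -2.93 to -2.29 in the distal maxilla and at -2.30 to -1.13 and -3.62 to -2.65 in the proximal maxilla. No array of a mutant overlapped the controls of its region. In the same order of regions Myf5 itself changed by -1.61, -0.19, -1.14 and -0.05, and Myog by -0.75, 0.39, -0.14 and 1.15. None of these changes passed, and at the proximal ends the difference came mostly with higher Myog. A lower level relative to Myog without overlap in every region was found for 4 of 13941 tested genes (0.0287%). These were Myf5, the cardiac and embryonic actin gene Actc1, Acp5 and C1qtnf3. This share is no matched background either, since Myf5 followed Myog (Pearson r of 0.917 after the group means were taken out). In the distal maxilla Myf5 itself was under the filter level in 4 of 6 arrays, and in the distal mandible in mutant 2, which gave the upper end of the mutant range, so the sizes there are uncertain. Msc minus Myog was apart in the proximal mandible, at -1.70 to -1.51 in controls and -2.92 to -2.47 in mutants, and in the proximal maxilla, at -0.66 to -0.13 and -2.70 to -1.52. Myod1 minus Myog was at -1.95 to -1.86 in control and -2.32 to -1.27 in mutant distal mandible and at -1.99 to -1.84 and -2.05 to -1.98 in the proximal mandible, where the genotypes overlapped. It was lower in mutants in both maxillary ends, by 0.58 distally and 0.21 proximally as a difference of means.

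**Figure D4:**
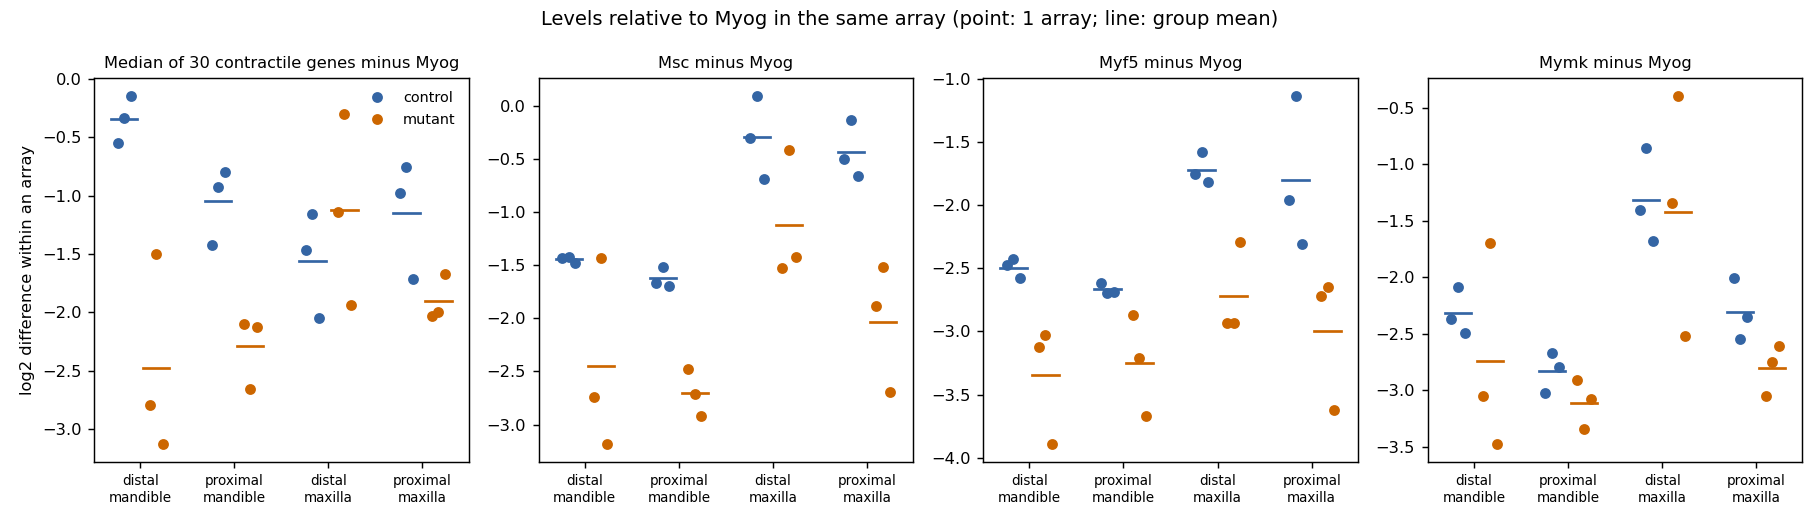
Log2 level minus that of Myog in the same array (vertical axis) for the median of 30 contractile genes, Msc, Myf5 and Mymk in the 4 regions (horizontal axis), 1 point per array, blue for controls and orange for mutants, with a line at each group mean. Relative to Myog, Myf5 is lower in mutants in every region with no overlap, and the contractile median is so in both ends of the mandible and in neither of the maxilla.

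Other genes of the pathway were described from lists written for this purpose. Their counts read against the 16.0% and 19.9% of all tested genes called in the distal and proximal mandible. Of 13 tested transcription factors upstream of myogenesis, 2 fell in the distal mandible, a share near that background: the homeobox genes Meox1, with a change of -0.83 ± 0.16 (adjusted p = 0.00193), and Meox2, with -2.01 ± 0.44 (0.00398). In the proximal mandible Meox1 fell by 1.11 ± 0.16 (9.16e-05), Dach2 fell by 0.55 ± 0.17 (0.0264) and Isl1, which neurons make too, rose by 1.39 ± 0.40 (0.0175). Among 16 partners and inhibitors of the myogenic factors, 6 rose and 2 fell in the distal mandible and 6 rose and 1 fell in the proximal mandible. Those that rose included Twist1, a helix-loop-helix inhibitor of Myod1 that neural crest mesenchyme makes in quantity, by 1.03 ± 0.08 distally (5.52e-07) and 0.77 ± 0.08 proximally (8.41e-06). Id1, which binds E proteins in place of myogenic factors, rose by 0.78 ± 0.06 and 0.43 ± 0.06 (5.52e-07 and 6.93e-05). The growth factor Igf1 fell by 0.76 ± 0.24 and 0.84 ± 0.24 (0.0392 and 0.0184), 1 of 3 genes that fell distally and of 5 proximally among 17 ligands, receptors and surface proteins of precursors, the distal count again near the background. In the distal maxilla 1 partner rose and no upstream or signalling gene was called, against 2.96% of all tested genes. In the proximal maxilla 1 upstream gene fell, 2 partners rose, and 2 signalling genes rose and 1 fell, against 10.5%.

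Across the 24 arrays the listed genes fell into patterns, given here as a description over arrays that share groups and numbers. Myod1 and Myog had a Pearson r of 0.972, Myf5 and Msc 0.957, and Mymk and the contractile median 0.927. After the group means were taken out the same pairs had 0.98, 0.94 and 0.954. Pax3 ran against them, with -0.751 against Mymk and -0.681 against Myog, and had 0.003 with Pax7. Pax7 and Met had 0.582. The genes most like Myod1 were Chrna1 (0.985), Myog, Tnnt1, Mymx, a micropeptide that acts with Mymk in fusion, and Rapsn (0.958). Those most like Myog were Mymx (0.992), Tnnt2, Myod1, Tnnt1 and Chrna1 (0.968). Those most like Pax3 were Hpse2 (0.963), Fam107b, Bcl11b, Klhl8 and Macc1 (0.898). None of these 5 is in the muscle lists, and the same holds for Pax7, with Acadm (0.893), 1810010H24Rik, Myo5b, Stk38 and Plaat3, and for Mef2c, with Slc30a7 (0.929), Bag3, Morc4, Gxylt2 and Mtss1.

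**Figure D5:**
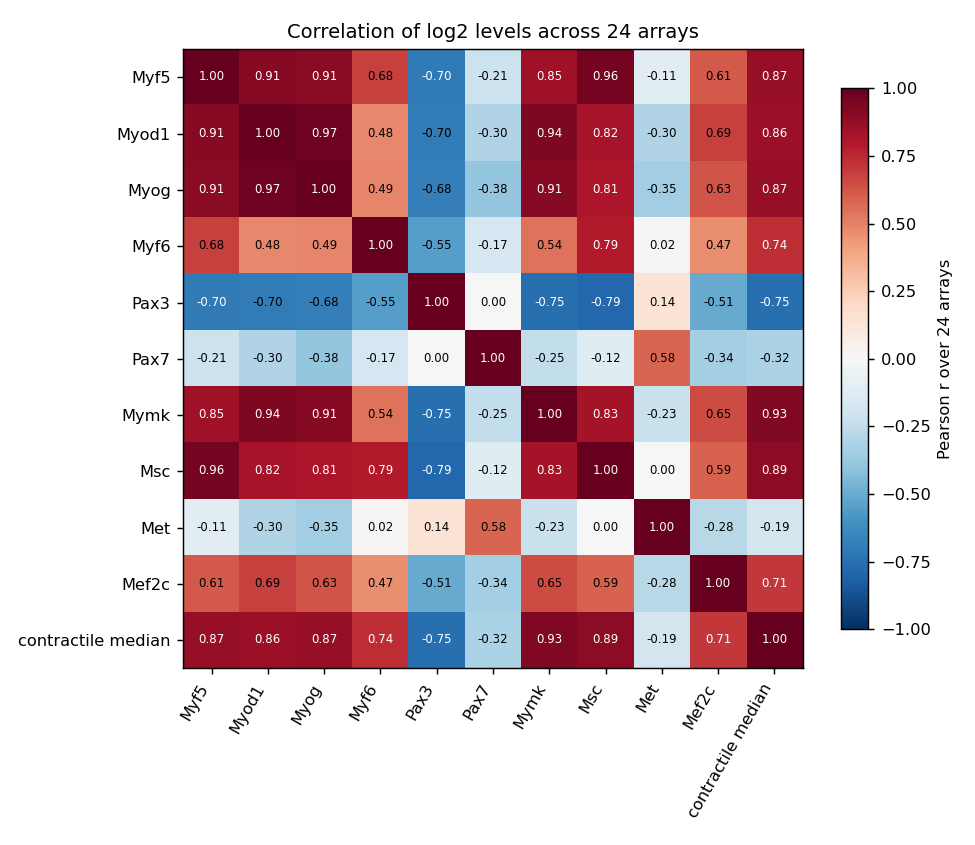
Pearson r of log2 levels over 24 arrays between the 10 genes and the median of 30 contractile genes (both axes), with colour from -1 to 1. Myf5, Myod1, Myog, Mymk and Msc form a block at 0.81 and above, Pax3 is negative against each of them, and Pax7 and Met pair at 0.58.

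By group, the mean of Myog was highest in the mutant proximal mandible, 12.05 ± 0.52 (SD, n = 3), and lowest in the mutant distal maxilla, 8.21 ± 1.26, and Myod1 and Mymk had the same extremes. Of the 7 steps between neighbouring groups in the order of means, the arrays were apart at 1 for Myog, 1 for Myod1 and 0 for Mymk, Myf5 and Myf6. Myf5 and Msc were highest in the control proximal mandible, 8.99 ± 0.42 and 10.03 ± 0.36, and lowest in the mutant distal maxilla, 5.49 ± 1.62 and 7.09 ± 0.97. Mef2c was highest in the same group, 11.82 ± 0.04, and Pax3 was lowest there, 8.20 ± 0.17. Pax3 was highest in the mutant distal mandible, 11.08 ± 0.21, which is where Pax7 was lowest, 6.35 ± 0.85. Pax3, Pax7 and Mef2c had 2 such steps each, and Msc and Met 1. The second probe set of Myod1 lay at background, with a mean of 4.11, and that of Pax7 was called in the same control comparisons as the main one.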

How the data were processed

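Deposited values were log2 signals of 45101 probe sets on 24 arrays, made by the authors with RMA, per the submitters' processing notes. The base of the logarithm is not given in the sources used here and was taken as 2 because signals ran from 3.29 to 14.86. Probe sets with 1 gene symbol numbered 34945, with several 932, with none 9160, and 64 were controls. All 19 probe sets of the listed genes matched RefSeq by gene identifier.

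Genes above the 40th percentile of an array in at least 3 arrays were tested, 13942 of 18193. limma 3.58.1 (R 4.3.3) fitted 1 mean per group to all 24 arrays, with eBayes and a mean-variance trend, and two-sided p-values were adjusted by Benjamini-Hochberg over all tested genes in each of 11 comparisons. Data simulated for the distal mandible, with 13942 genes, gave back 89 of 100 changes of 1 and 98 of 100 changes of 2 (log2). These shares do not give the recovery for a single listed gene. Standard errors in that region were 0.70 for Myog and 0.72 for Myf5, whose change of -1.61 did not pass. Named beside the 10 genes were up to 4 members per list, by the size of the moderated statistic, and the 5 genes most alike. Myh3, Actc1, Acp5 and C1qtnf3 were chosen after their values were seen. The listed genes, the gene lists and the tests were chosen with earlier results of these data known.

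Whether replicate numbers pair the arrays was checked by the correlation, over genes, of residuals of same-numbered arrays. Every pair was over 0.1 in the control mandible (0.329 to 0.681) and in no other comparison, where the lowest lay between -0.218 and 0.0932. Pairs between genotypes, which are different embryos, are among those. Within a genotype 6 of 6 pairs of mandible ends were over 0.1 (lowest 0.27) and 32 of 36 pairs over the series (lowest 0.00355), and Xist and Eif2s3y levels also went by genotype and number, for which the random block stands. Numpy 2.4.6 and pandas 2.3.3 on Python 3.11.15 made the tables, and matplotlib 3.10.9 the plots.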

Additional observations from a re-analysis of the deposited data

How the results depend on the processing

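Counts are of the 10 listed genes called. The share of all tested genes called in each setting is not given here. A count that moves is therefore not shown to be particular to the listed genes. With array weights 7 were called in the distal mandible (main value 3), 2 in the proximal mandible (1) and 3 from end to end of the control mandible (1). With only the arrays compared in the fit these were 6, 2 and 7, and 0 in the proximal maxilla (1). The proximal maxilla also gave 0 with no filter, with the mean of all probe sets and with no trend. With the replicate number as a fixed block 2 were called in the proximal mandible and 2 in the control mandible. With genotype and number as a random replicate block there were 0 in the proximal maxilla, 3 over the mean of regions (5), 1 between the jaws' genotype effects (0) and 2 in the control mandible. Without both mutant maxilla arrays numbered 3, 2 were called in the proximal mandible and 1 in the distal maxilla (Msc, -1.51, limma adjusted p = 0.047). A further pair of choices was made after seeing the data. Without all mutant arrays numbered 2 there were 1 in the distal mandible, 2 over the mean and 1 between the jaws. Without control proximal maxilla 2 and mutant proximal maxilla 3 there were 5 and 3 in the distal and proximal mandible. Leaving out 1 array at a time gave 0 to 3 in the distal mandible, 0 to 2 in the proximal mandible, 0 to 1 in the proximal maxilla, 4 to 6 over the mean, 0 to 1 between the jaws' genotype effects, 7 to 10 between control jaws and 1 to 3 between the ends of the control maxilla.

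Signs turned only for changes that were not called. Mef2c in the distal maxilla was at -0.036 after a further quantile normalization, -0.20 with array weights and -0.28 without both mutant maxilla arrays numbered 3, a setting that also put Mymk in the proximal maxilla at -0.15 and Myog over the mean at -0.19. Without all mutant arrays numbered 2, Myog was at 0.12 in the distal mandible and 0.39 in the distal maxilla, Myf5 at 0.071 and Pax7 at 0.080 in the proximal mandible, Myf5 at 0.22 and Mef2c at 0.25 in the proximal maxilla, and Myod1 at 0.38 and Mymk at 0.13 over the mean. Without control proximal maxilla 2 and mutant proximal maxilla 3, Myf5 was at 0.35 in the proximal maxilla. With 1 array left out the ranges in the distal mandible were -1.32 to 0.12 for Myog. In the proximal mandible they were -0.44 to 0.071 for Myf5, -0.37 to 0.091 for Pax7, -0.13 to 0.51 for Mymk and -0.010 to 0.33 for Met. In the distal maxilla they were -0.84 to 0.39 for Myog, -0.29 to 0.043 for Myf6 and -0.28 to 0.25 for Mef2c. In the proximal maxilla they were -0.58 to 0.75 for Myf5, -0.015 to 0.52 for Pax7, -0.15 to 1.06 for Mymk, -0.84 to 0.16 for Msc and -0.28 to 0.25 for Mef2c. Over the mean they were -0.25 to 0.073 for Myod1 and -0.015 to 0.38 for Myog. The cause was not tested. Myf6 has no value under a filter at the 60th percentile. With 3 arrays per group their number limits the precision, and Myf6, near background, is least certain.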
